A study of Mus musculus with 6 samples.

Results

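The genes described here are the core of the transforming growth factor beta (TGF-beta) pathway: the ligand genes Tgfb1, Tgfb2 and Tgfb3, the receptor genes Tgfbr1 and Tgfbr2, the signal carriers Smad2, Smad3 and Smad4, and the inhibitors Smad7 and Ldlrad4. They are 10 of the 19937 mouse genes that the array's annotation names through probe sets with a single symbol, and each of the 10 had 1 probe set. They were chosen by name with the difference between the groups already known, and Tgfb3 and Ldlrad4 were singled out in that choice. The members' differences are therefore given as a description, and nothing is supported with them.

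RNA was measured in 230-238, a mouse B-cell line, on 6 arrays. The 3 GFP arrays carry cells infected with a plasmid for green fluorescent protein, and the 3 GFP+FOG1 arrays carry cells whose plasmid encoded that protein and FOG1, a protein made from Zfpm1 that works with GATA transcription factors. All cells were cultured for 3 days, sorted for fluorescence and cultured for 4 more days before RNA was taken, so both groups share infection, sorting and fluorescent protein. The labels give 1 cell line, no parental uninfected cells, and call the 3 samples of a group biological replicates without saying whether they were infected separately, so any p-value measures only the spread between these samples.

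TGF-beta ligands are secreted in a latent form and, once released, bind the receptor encoded by Tgfbr2, which recruits and activates the receptor kinase encoded by Tgfbr1. That kinase phosphorylates the proteins of Smad2 and Smad3, which join the product of Smad4 and act on genes in the nucleus. Smad7 and Ldlrad4 counter this: the Smad7 protein blocks the activated receptor and is itself induced by the signal, and in human cells LDLRAD4 keeps SMAD2 and SMAD3 away from the receptor. In B cells the pathway is known for restraining proliferation and for directing class switching to immunoglobulin A.

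All values are log2 signals as the authors deposited them, and a difference is GFP+FOG1 minus GFP on that scale, with the moderated standard error (SE) of a limma fit over 34760 probe sets. The label check held: Zfpm1 read 9.41, 9.49 and 9.43 on the GFP arrays and 10.21, 10.16 and 10.17 on the GFP+FOG1 arrays. All 11 measured B-lineage markers, such as Pax5, Ebf1 and Cd79a, lay above the median of all values, 7.00. So did 8 of 12 fibroblast and stromal markers, against 4 of 8 for megakaryocytes, 2 of 12 for monocytes and macrophages and 1 of 10 for T and NK cells. The summed linear signal of the stromal markers ran from 8200 to 9691 on the GFP arrays and was 10507, 8708 and 6002 on GFP+FOG1 replicates 1, 2 and 3. GFP+FOG1 replicate 3 thus stood apart in stromal signal, in an array-to-array pattern that crossed the groups.

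Of the ligands, Tgfb3 was lower in every GFP+FOG1 array, Tgfb1 was nearly level, and Tgfb2 varied from array to array more than between groups. Tgfb3 (probe set 10401673) read 9.48, 9.44 and 9.40 on the GFP arrays and 8.90, 8.85 and 8.70 on the GFP+FOG1 arrays. The groups did not overlap, and the gap between the lowest GFP array and the highest GFP+FOG1 array exceeded the range within either group. The group means were 9.44 ± 0.04 and 8.81 ± 0.10 (SD, n = 3 each), a log2 difference of -0.63 (SE 0.06), or a 1.54-fold lower signal with FOG1. Leaving out any 1 array kept the difference between -0.67 and -0.57.

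Tgfb1 (probe set 10551185), the ligand gene known as the main one of blood cells, read 11.99, 11.99 and 11.96 with GFP and 11.99, 12.02 and 12.04 with GFP+FOG1. Its groups just failed to touch, with the GFP+FOG1 arrays higher, but the log2 difference was 0.04 (SE 0.04), a 1.03-fold change. Its within-group SD, 0.02, was among the smallest 2.09% of all probe sets. The choice of scaling moved the difference between 0.01 and 0.07, which is a large move only beside a spread that narrow.

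Tgfb2 (probe set 10360920) read 7.58, 7.87 and 7.93 on the GFP arrays and 8.02, 7.72 and 7.20 on the GFP+FOG1 arrays. The highest and the lowest of the 6 values were both GFP+FOG1 arrays, so the groups overlapped fully. The log2 difference of -0.14 had an SE of 0.21, and it was 0.08 without GFP+FOG1 replicate 3 and -0.33 without GFP+FOG1 replicate 1. GFP+FOG1 replicate 3 was the only array whose removal changed the sign. Its within-group SD, 0.32, was larger than that of 96.4% of probe sets.

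The start regions of Tgfb2 and Tgfb1 are shown because the first of these ligand genes followed the arrays and the second hardly moved, and because FOG1 acts through GATA factors. Both are RefSeq sequences of build GRCm38.p6 and run 5′ to 3′ from 250 bases before the transcription start to 20 bases after it. Tgfb2 is chr1:186705970-186706239 on the minus strand and Tgfb1 is chr7:25686752-25687021 on the plus strand. Capitals mark matches to the GATA letters AGATAA or TGATAA or AGATAG or TGATAG, or to the SMAD-type letters CAGACA, on either strand.
Tgfb2: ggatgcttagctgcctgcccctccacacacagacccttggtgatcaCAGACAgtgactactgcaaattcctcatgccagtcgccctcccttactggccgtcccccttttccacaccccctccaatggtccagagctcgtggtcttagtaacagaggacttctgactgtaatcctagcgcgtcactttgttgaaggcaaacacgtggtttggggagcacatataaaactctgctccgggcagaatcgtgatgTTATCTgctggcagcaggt
Tgfb1: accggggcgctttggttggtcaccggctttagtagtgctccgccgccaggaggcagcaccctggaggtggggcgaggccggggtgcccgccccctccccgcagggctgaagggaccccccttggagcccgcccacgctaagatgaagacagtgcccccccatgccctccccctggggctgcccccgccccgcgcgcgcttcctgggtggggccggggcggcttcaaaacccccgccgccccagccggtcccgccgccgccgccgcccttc
Tgfb2 held 1 GATA match, TTATCT, which begins at base 2 after the start, and 1 SMAD-type match, which begins 204 bases before it, with no overlap between them. Tgfb1 held neither. Of all 32851 start regions of this length in the table, 28.0% held a GATA match and 18.7% a SMAD-type match, so both are common letters. The table matched 5 of the 10 genes, with 6 start regions, and the other matches were 1 SMAD-type match in the second start region of Tgfbr1 and none for Tgfbr2 or Smad3. For Tgfb3, Smad2, Smad4, Smad7 and Ldlrad4 no sequence is shown. A match is a string of letters, not a bound site.

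**Figure D1:**
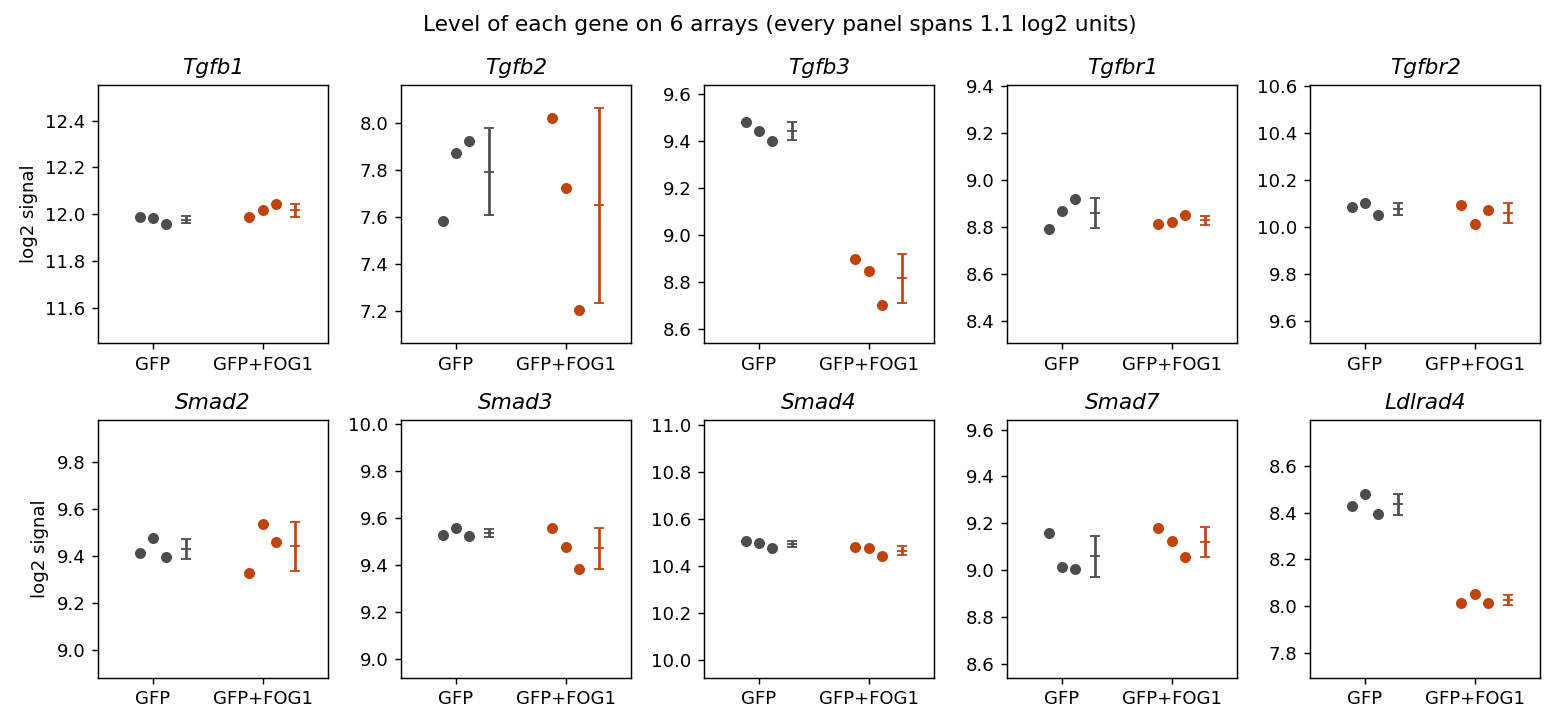
Log2 signal (vertical axis) of the 10 genes on the 3 GFP and 3 GFP+FOG1 arrays, 1 point an array in replicate order, with the group mean and SD beside the points and the same axis span in every panel. Tgfb3 and Ldlrad4 sit lower on all 3 GFP+FOG1 arrays, Tgfb2 is scattered from 7.20 to 8.02, and the other 7 genes lie close to level.

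Both receptor genes were level within their replicate spread. Tgfbr1 (probe set 10504817), the gene of the signalling kinase, read 8.79, 8.87 and 8.92 with GFP and 8.81, 8.82 and 8.85 with GFP+FOG1, a log2 difference of -0.03 (SE 0.05). Tgfbr2 (probe set 10597518), the gene of the ligand-binding receptor, read 10.08, 10.10 and 10.05 against 10.09, 10.01 and 10.07, a difference of -0.02 (SE 0.05). For both genes the groups overlapped, and every GFP+FOG1 array of Tgfbr1 lay inside the GFP range. Neither difference had a settled sign: that of Tgfbr2 was 0.01 after median centring, and that of Tgfbr1 was 0.00 without GFP replicate 3.

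The 3 SMAD genes that carry the signal were also level. Smad2 (probe set 10456764) read 9.41, 9.48 and 9.40 with GFP and 9.33, 9.53 and 9.46 with GFP+FOG1, a log2 difference of 0.01 (SE 0.06). The GFP+FOG1 arrays held both its highest and its lowest value. Smad3 (probe set 10594404) read 9.53, 9.56 and 9.53 with GFP and 9.56, 9.48 and 9.38 with GFP+FOG1, a difference of -0.07 (SE 0.06). The lowest Smad3 value came from GFP+FOG1 replicate 3. The Smad3 difference was -0.02 without that array and -0.11 without GFP+FOG1 replicate 1. Smad4 (probe set 10459705), the gene of the shared partner, read 10.50, 10.50 and 10.48 against 10.48, 10.47 and 10.44, a difference of -0.03 (SE 0.04). Its within-group SD was 0.02, smaller than in all but 0.923% of probe sets, and its groups met at 10.48.

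Of the inhibitors, Ldlrad4 was lower in every GFP+FOG1 array and Smad7 was not. Ldlrad4 (probe set 10456492) read 8.43, 8.48 and 8.39 on the GFP arrays and 8.01, 8.05 and 8.02 on the GFP+FOG1 arrays. The groups were far apart for their spread, with means of 8.43 ± 0.04 and 8.03 ± 0.02 (SD, n = 3 each). The log2 difference was -0.41 (SE 0.04), a 1.33-fold lower signal, and it stayed between -0.43 and -0.39 whichever array was left out. Smad7 (probe set 10456745), the inhibitor gene that the signal induces, read 9.16, 9.02 and 9.00 against 9.18, 9.13 and 9.06, a difference of 0.06 (SE 0.06) with overlapping groups. Ldlrad4 and Tgfb3 were singled out with their differences known, so nothing about the pathway is read from both being lower.

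**Figure D2:**
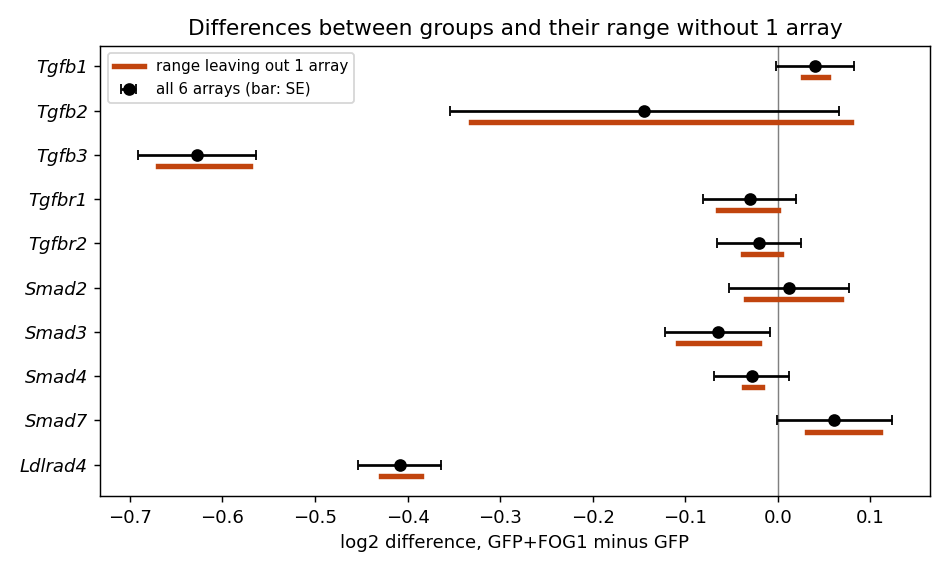
Log2 difference, GFP+FOG1 minus GFP (horizontal axis), for each gene (rows), with black points and bars for the value and its SE over 6 arrays and orange bars for the range when 1 array is left out. Tgfb3 at -0.63 and Ldlrad4 at -0.41 keep narrow ranges away from 0, and the bar of Tgfb2 runs from -0.33 to 0.08.

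In the fit over all probe sets, 2 of the 10 genes, Tgfb3 and Ldlrad4, had an adjusted p under 0.05 (limma, Benjamini-Hochberg), where 0.224% of all probe sets did. Both were lower with FOG1, as were the 0.121% of all probe sets that fell past the threshold. Since both were named for their difference, nothing is read from that count. Whichever 1 of the 6 arrays was left out, 0 of the 10 genes passed the threshold by limma, with 2 at an unadjusted p under 0.05. Groups that did not overlap were found for 3 of the 10 genes, Tgfb1, Tgfb3 and Ldlrad4, against 19.6% of all probe sets. The other 8 genes had log2 differences from -0.14 to 0.06, and a difference under 0.15 in size was found for 79.2% of all probe sets. All 10 genes had a mean above the median signal.

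Markers of other cells were set beside Tgfb3 and Ldlrad4. The 12 monocyte and macrophage markers summed to 1600 to 1777 on the GFP arrays and 1388 to 1442 on the GFP+FOG1 arrays. All 12 differences were below 0, as were 53.8% over all probe sets, and their median was -0.08. Of these 12, Itgam, an integrin chain gene of myeloid cells, was the 1 that fell past the threshold (log2 difference -1.11, SE 0.08, limma adjusted p = 0.0075). It read 8.13, 8.02 and 8.07 with GFP and 6.88, 6.89 and 7.11 with GFP+FOG1, and the sums were not taken without it. The separation of the monocyte and macrophage sums is therefore not read as one of the whole list. Csf1r and Adgre1 differed by -0.04 and -0.02, but both lay below the median signal, where changes are understated. Mpeg1 and Cd14 differed by -0.57 and -0.20. With Itgam and C1qb they were the 4 of 12 whose groups did not overlap (33.3%, against 19.6% of all probe sets). Of these 4, only Itgam had a mean above the median signal. The B-lineage sum was 57156 to 58260 with GFP and 53901 to 56351 with GFP+FOG1, and its members Cd79a and Cd79b, the signalling chains of the B-cell receptor, differed by -0.41 and -0.16. Il7r, the interleukin 7 receptor gene, differed by 0.20, and 5 of the 11 B-lineage differences were above 0, with a list median of -0.003. A linear sum weighs the brightest genes most, Cd79a among them, and the B-lineage sum was not taken without Cd79a. Its separation between the groups is therefore not read as a fall of B-lineage signal as a whole. Megakaryocyte and T and NK cell sums overlapped between the groups, at 873 to 928 against 875 to 932 and at 620 to 644 against 602 to 661. The part of other cell types in the Tgfb3 and Ldlrad4 differences was not tested. In bulk RNA, fewer cells of a type and less RNA per cell cannot be told apart.

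Tgfb2 moved from array to array with most of the stromal markers. The closest match to its 6 deviations from its mean, among named genes at or above the median signal, was Fn1, the gene of the matrix protein fibronectin. Fn1 read 12.12, 12.36 and 12.44 with GFP and 12.50, 12.23 and 11.65 with GFP+FOG1, and its deviations differed from those of Tgfb2 by a root mean square of 0.03 and by at most 0.05. The median gene differed by 0.29, but that distance grows with the spread of Tgfb2 itself and does not show how rare such a match is. Capn2, a calpain gene, at 0.03, and Rin2, a RAB5 regulator gene, at 0.04, came next. This search for Tgfb2 was added after its values were seen.

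Of the 12 stromal markers, 8 had their highest value on GFP+FOG1 replicate 1 and their lowest on GFP+FOG1 replicate 3, as Tgfb2 did. That pattern was found in 3.35% of all probe sets. The 8 include the collagen genes Col1a1 and Col1a2, the smooth muscle actin gene Acta2 and the platelet-derived growth factor receptor gene Pdgfrb, which ran from 8.97 to 7.59 within the GFP+FOG1 group. The others, Thy1, Postn, Dcn and Lum, did not show it. Whether stromal cells or a stromal programme in the B cells gave this signal was not tested.

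**Figure D3:**
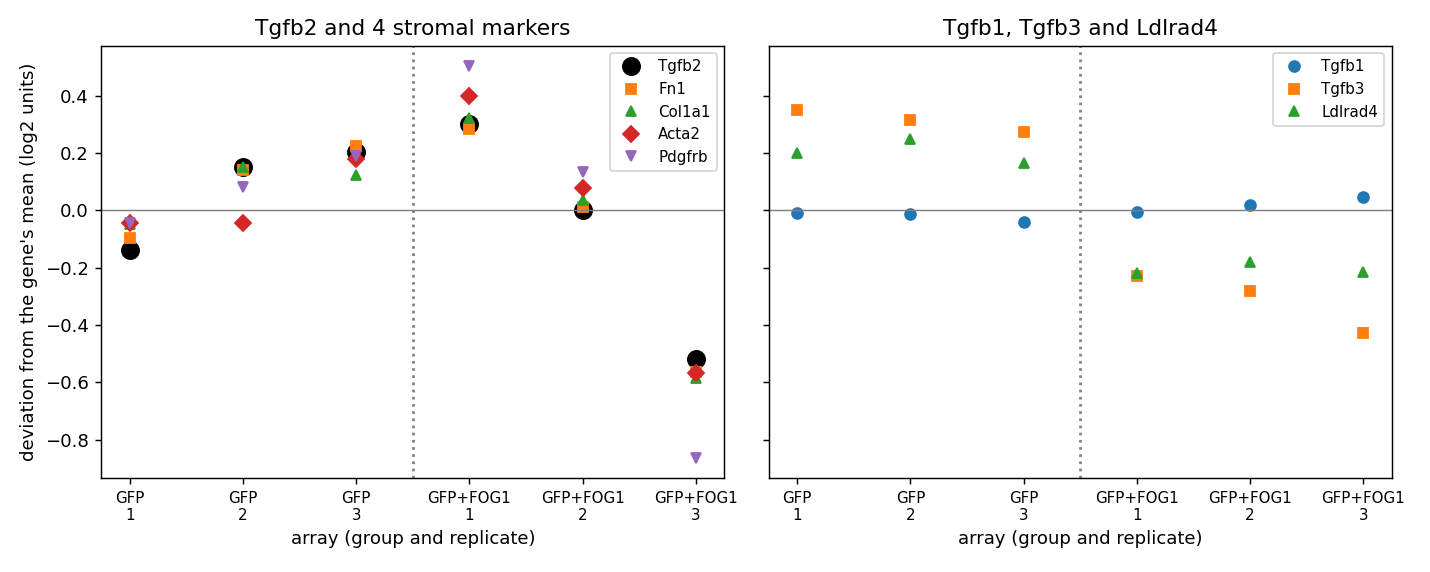
Deviation of each gene from its own mean over 6 arrays (vertical axis, log2 units) by array (horizontal axis), with the groups parted by a dotted line. On the left Tgfb2 and 4 stromal markers peak on GFP+FOG1 replicate 1 and drop on replicate 3, and on the right Tgfb3 and Ldlrad4 step down between the groups while Tgfb1 stays within 0.05 of its mean.

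Tgfb3 and Ldlrad4 were closest to other genes that were lower in all GFP+FOG1 arrays. For Tgfb3 the nearest were Dnase1l3, a secreted DNase gene, at a root mean square difference of 0.06 over the 6 arrays, then Gm10384, a predicted gene, and Prxl2c, a peroxiredoxin-like gene, both also at 0.06, where the median gene was at 0.33. Dnase1l3 read 8.00, 8.03 and 7.95 with GFP and 7.58, 7.45 and 7.38 with GFP+FOG1. For Ldlrad4 the nearest were Pcdh9, a protocadherin gene, at 0.04, Tram2, a gene of the endoplasmic reticulum translocation machinery, at 0.04 and Cd79a at 0.05, with the median gene at 0.22. Pcdh9 read 9.27, 9.23 and 9.17 against 8.82, 8.82 and 8.76. With 6 arrays in 2 groups, such matches are a description of shared steps and shared noise. The median distances grow with the step of Tgfb3 or Ldlrad4 itself, so they do not show how rare a match is.

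The protein-coding genes on either side of each were also read, a choice made after values were seen and with gene order from RefSeq assembly GRCm38.p6. Around Tgfb3, Erg28, Ttll5 and Gpatch2l differed by 0.03, 0.03 and 0.07, and Ift43, a gene of transport within cilia, by -0.21 (SE 0.07; limma adjusted p = 0.31). Around Ldlrad4, the nuclear pore gene Seh1l differed by 0.17, the centrosome gene Cep192 by 0.13, the messenger RNA cap methyltransferase gene Rnmt by 0.22 and Fam210a by -0.02. None of these 8 neighbours passed the threshold (limma adjusted p from 0.31 to 0.91), and 4 of the 8 had an unadjusted p under 0.05, as did 12.5% of all probe sets.

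Beyond the 10 genes, 5 lists of other pathway genes held 111 genes, of which 107 were measured by 109 probe sets. None of them passed the threshold in either direction (limma, smallest adjusted p = 0.17), and 8 of the 107 had an unadjusted p under 0.05 (7.48%, where 12.5% of all probe sets did). The median log2 difference over the 107 was -0.04, beside -0.01 over all probe sets. The smallest p values of each list are described next, as values.

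Genes that release or present the ligands had a median of -0.07 over 15, with 10 below 0. It was 0.04 with 6 below 0 when GFP+FOG1 replicate 3 was left out, and was not taken without GFP+FOG1 replicate 1. Nrros, whose product holds latent ligand on myeloid cells, differed by 0.17 (SE 0.05; limma adjusted p = 0.32). It read 8.84, 8.86 and 8.84 with GFP and 8.94, 9.00 and 9.10 with GFP+FOG1, so the groups did not overlap. Eng, the gene of the co-receptor endoglin, differed by 0.11, also without overlap. The latent ligand binding genes Ltbp2, Ltbp3 and Ltbp4 differed by -0.20, -0.20 and -0.11, and all 3 had their lowest value on GFP+FOG1 replicate 3. Ltbp1, named here outside the smallest p values, differed by -0.28 (SE 0.20) and was also lowest on that array. Its difference was -0.09 without GFP+FOG1 replicate 3 and -0.49 without GFP+FOG1 replicate 1.

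Other SMADs and their partners had a median of 0.01 over 19 genes and no unadjusted p under 0.05. Those with the smallest p were Trim33, a ubiquitin ligase gene that acts on SMAD4, at 0.08, Smad9 at -0.08, the endosomal sorting gene Hgs at -0.07, Smad1 at -0.07 and the coactivator gene Ep300 at 0.05. Smad1 and Smad9 carry signals of bone morphogenetic proteins (BMPs), and Smad9 lay below the median signal.

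Other inhibitors and regulators had a median of 0.01 over 22 genes. Usp11, a deubiquitinase gene, read 9.06, 9.07 and 8.96 with GFP and 9.22, 9.26 and 9.28 with GFP+FOG1, a difference of 0.22 (SE 0.05; limma adjusted p = 0.21). Bambi, the gene of a decoy receptor, read 7.73, 7.58 and 7.64 against 7.56, 7.50 and 7.47, a difference of -0.14 (SE 0.06; limma adjusted p = 0.38). The groups of both genes did not overlap, in opposite directions. The repressor gene Zeb1 differed by -0.09, the SMAD3 inhibitor gene Eid2 by -0.14 and the corepressor gene Tgif1 by -0.08.

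Genes known to respond to TGF-beta in treated cells had the lowest median of the 5 lists, -0.13 over 27, with 23 below 0, where 53.8% of all probe sets were below 0. Without GFP+FOG1 replicate 3 the median was -0.04 with 18 of 27 below 0, and it was not taken without GFP+FOG1 replicate 1. The list does not part genes that TGF-beta raises from genes it lowers, so a common fall gives no direction of signalling. An unadjusted p under 0.05 was found for 4 of the 27 (14.8%, near the 12.5% of all probe sets), all lower with FOG1. Tsc22d3, the gene of a leucine zipper protein also induced by glucocorticoids, read 8.16, 8.20 and 8.06 with GFP and 7.90, 7.88 and 7.84 with GFP+FOG1 (difference -0.27, SE 0.05; limma adjusted p = 0.17). Gadd45b, a stress response gene, read 9.58, 9.63 and 9.60 against 9.45, 9.44 and 9.42 (difference -0.17, SE 0.04; limma adjusted p = 0.23). Neither gene's groups overlapped. Id1, an inhibitor of helix-loop-helix factors, differed by -0.27, the repressor gene Klf10 by -0.18 and the helix-loop-helix repressor gene Bhlhe40 by -0.20, with limma adjusted p from 0.34 to 0.41.

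The BMP and activin branch had a median of -0.03 over 28 genes, of which 12 reached the median signal. The receptor gene Bmpr1b, with readings from 4.60 to 4.86, differed by -0.13 and was too dim for its change to be read closely. The ligand genes Gdf11 and Bmp4 differed by -0.13 and -0.23, the receptor gene Bmpr2 by -0.21 and the ligand-binding inhibitor gene Fstl3 by -0.20 (limma adjusted p for these 5 from 0.40 to 0.60).

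Of the 107 pathway genes, 17 (15.9%) shared the array pattern of Tgfb2, highest on GFP+FOG1 replicate 1 and lowest on replicate 3, beside the 3.35% of all probe sets. Named after their values were seen, they include the matrix and secreted genes Thbs1, Ccn1, Ccn2, Bgn and Tgfbi. Genes of other kinds are among them too, such as Fos, Furin, Gadd45a, the regulator gene Smurf2 and the receptor gene Bmpr1a. Thbs1, whose product releases latent ligand, read 9.61, 9.96 and 9.76 with GFP and 10.15, 9.51 and 8.66 with GFP+FOG1. Its difference was -0.33 (SE 0.35) over all arrays, 0.06 without GFP+FOG1 replicate 3 and -0.69 (SE 0.26) without GFP+FOG1 replicate 1. Ccn2, a matrix-associated target gene, differed by -0.11 with all arrays. It differed by 0.16 without GFP+FOG1 replicate 3 and by -0.33 without GFP+FOG1 replicate 1. The low values of both genes on GFP+FOG1 replicate 3 went with its stromal sum of 6002, the lowest of the 6. The part of stromal signal in them was not tested.

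**Figure D4:**
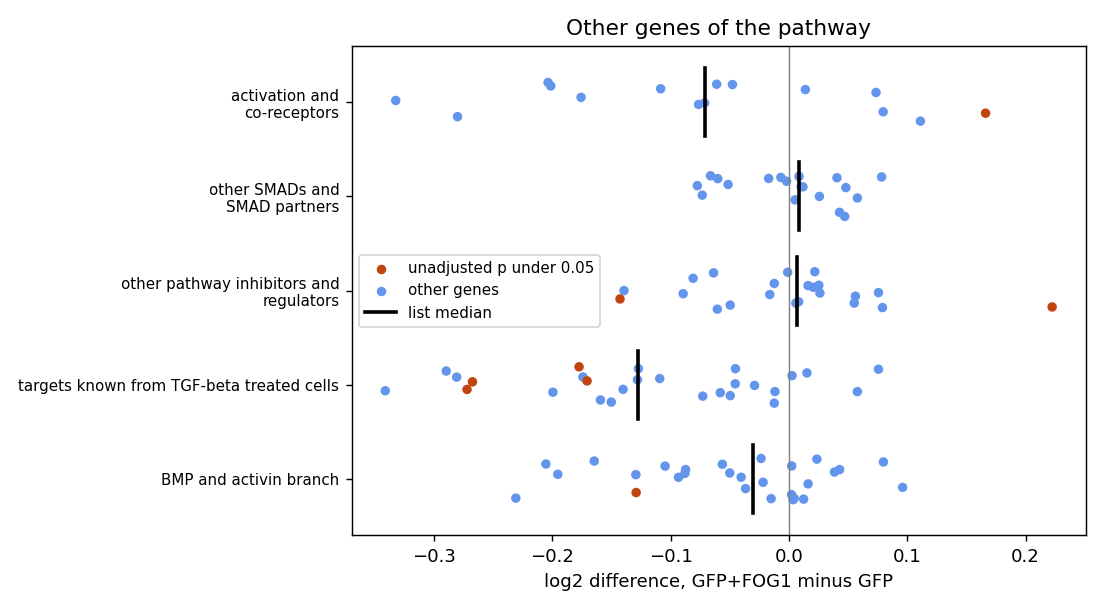
Log2 difference, GFP+FOG1 minus GFP (horizontal axis), of the measured genes in 5 pathway lists (rows, vertical scatter only to part the points), with orange points for an unadjusted p under 0.05 and black bars for list medians. The 8 orange points lie between -0.27 and 0.22, and the list of genes known to respond to TGF-beta has its median at -0.13.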

How the data were processed

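The authors deposited 1 log2 signal for each of 34760 probe sets on 6 arrays, and the log2 scale was read from the values (3.12 to 14.07, array medians 6.98 to 7.04). Per the submitters' processing notes the affy package was used, with no version. The background correction, the scaling between arrays and the probe summary are not stated in those notes or the labels, so a shift shared by most genes could be hidden, and dim signals understate changes. The number of arrays, 3 a group, limits the precision.

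Groups and replicate numbers came from the sample titles. Probe sets were named through the platform annotation, where 21640 had 1 symbol. Entrez identifiers, looked up in a RefSeq table, changed 0 symbols. A linear model in limma 3.58.1 (R 4.3.3, with moderated variances, no filter and no block) compared the groups, with Benjamini-Hochberg adjustment over all probe sets and a threshold of 0.05. In 5 simulated runs of this comparison with 34760 probe sets and 200 changed, the fit recovered 70.2% of changes of 1.41-fold, and false calls made up 6.69% of those it made. The simulated noise was normal and independent between probe sets. The deposited arrays hold patterns shared by many genes, so these rates need not carry over to them. Python 3.11.15 and matplotlib 3.10.9 were used for summaries and figures.

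The rule for named genes took every member, Zfpm1, the 5 genes with the smallest p of each pathway list, any that passed, and the 3 genes nearest in pattern to Tgfb3 and Ldlrad4. For genes with several probe sets the brightest was used. The members, lists and rule were chosen with earlier results of these data known. Deviations of same-numbered arrays from their group means correlated at -0.07, 0.01 and -0.04, so numbers were not taken to pair them. Alternatives were quantile normalization, median centring, leaving out dim or unnamed probe sets, a replicate block, a variance trend, array weights and leaving out each array.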

Additional observations from a re-analysis of the deposited data

How the results depend on the processing

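Scaling, array weights and leaving out an array are the 9 alternatives that can move a member's difference, and 86 of those 90 values moved by less than the replicate SD. The 4 that moved more were Tgfb1 and Smad4, the members with the narrowest spread, under quantile normalization (0.01 and -0.05) and median centring (0.07 and -0.003). The near-zero differences of Tgfb2, Tgfbr1, Tgfbr2 and Smad2 changed sign in 1 to 3 fits each. Of Tgfb3 and Ldlrad4, chosen for this contrast, 0 passed in each limma fit that left out 1 array, with 2 at an unadjusted p under 0.05. Over all probe sets, 78 passed, and leaving out 1 array gave 17 to 38. Fewer samples are part of that construction. With the replicate block 9 probe sets and 0 members passed (limma, with 2 members at an unadjusted p under 0.05), and the cause was not tested. The count of pathway probe sets past the threshold was 0 in each of these limma fits, with 3 to 10 at an unadjusted p under 0.05 except for 25 without GFP+FOG1 replicate 1. The filters on probe sets, the block, the variance trend and averaging a gene's probe sets leave a member's difference as it is by construction.

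After the data were seen, the pathway lists were also read without GFP+FOG1 replicate 3, and the median of the ligand release list moved from -0.07 to 0.04. List medians were not taken without any other array, so these values do not show that GFP+FOG1 replicate 3 alone made the difference. Signals near background could not be told from low expression because no detection calls were used.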
